A study of Mus musculus with 6 samples.

Results

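The genes described are 10 around S-adenosylmethionine (SAM): Mettl16, Mat2a, Mat2b, Ahcy, Ahcyl1, Ahcyl2, Mtr, Mtrr, Amd1 and Mtap. They supply, recycle, spend or sense SAM, or, as Ahcyl1 and Ahcyl2, encode AHCY-like proteins. They were chosen by symbol, with earlier results of these data known. All 10 were found among the 55367 rows of the expression table, and all 10 passed the filter on low values. RNA sequencing measured transcripts in LLC cells, a wild-type mouse line from a Lewis lung carcinoma, kept for 46 h with the solvent DMSO (3 libraries) or with 5 µM STM2457 (3 libraries). STM2457 is a small-molecule inhibitor of METTL3, the catalytic subunit of the main writer of N6-methyladenosine (m6A). Both groups were of the same line and medium, and whether each library is a culture of its own is not stated. The p-values therefore cover only library-to-library spread, part or all of which may be technical.

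SAM is the methyl donor of nearly all cellular methylation, that of METTL3 included. Methionine adenosyltransferase makes it from methionine and ATP, with MAT2A as the catalytic subunit outside the liver and MAT2B as its regulatory partner. Each methylation leaves S-adenosylhomocysteine, an inhibitor of methyltransferases, which AHCY cleaves to homocysteine and adenosine. Methionine synthase (MTR), kept active by its reductase MTRR, returns homocysteine to methionine. A side branch decarboxylates SAM (AMD1) for polyamine synthesis, and MTAP salvages the methylthioadenosine that this branch releases. METTL16 is an m6A methyltransferase separate from the METTL3 complex. It modifies U6 small nuclear RNA and hairpins in the 3′ untranslated region of the Mat2a transcript, and when SAM is scarce its prolonged binding there promotes splicing of a detained Mat2a intron.

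The METTL16 sites of Mat2a are shown because they are the sequence that ties these 2 genes together. The motif TACAGANAA was searched on the transcript strand in the 1494 bases after the stop codon of the standard 2804-base Mat2a transcript (GENCODE M21, build GRCm38), and 6 matches were found. Each is printed 5′ to 3′ as 30 bases of the transcript in DNA letters, with the match in capitals.
Mat2a site 1: tggcgtaggtTACAGAGAAgccttcaagct
Mat2a site 2: ccttgtgataTACAGAGAAgtcacagggca
Mat2a site 3: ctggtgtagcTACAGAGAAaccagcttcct
Mat2a site 4: atggcgtaagTACAGAGAAgccatcacctc
Mat2a site 5: caaggtgtccTACAGAAAAaccttgggtta
Mat2a site 6: gctggtgtggTACAGAGAAgccagcttgtt
On the minus strand of chromosome 6 the windows lie at chr6:72434234-72434263, chr6:72433450-72433479, chr6:72433271-72433300, chr6:72433156-72433185, chr6:72433045-72433074 and chr6:72432937-72432966, all in the last exon. Of 7485 windows of the same length after the stop codons of other genes, 5.72% held at least 1 match, and the highest number in any of them was 2. The longest annotated 3′ untranslated regions of the other 9 genes held 0 matches. The motif is that of the METTL16 sites of Mat2a, so a higher count there was set by the choice of motif. The comparison with other genes is therefore a description and not a test. A match is a description of the sequence, and its methylation was not measured.

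**Figure D1:**
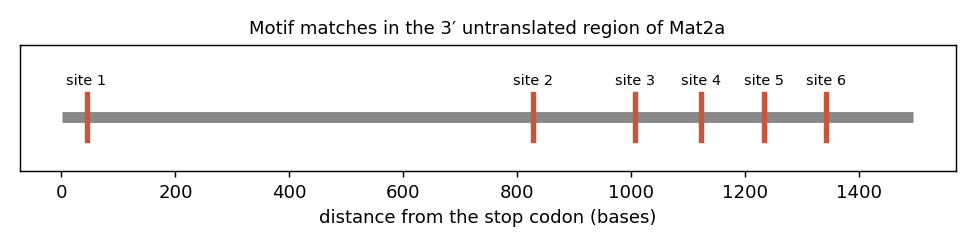
Positions of the 6 motif matches in the 3′ untranslated region of Mat2a, as distance in bases from the stop codon (grey bar, 1494 bases). Site 1 starts 40 bases after the stop codon, and sites 2 to 6 lie between 824 and 1337 bases after it.

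The table holds shrunken log2 values, from which reads were recovered. The libraries held 17670086 to 17915885 reads in genes. For the 10 genes every recovered value lay within 0.125 reads of a whole number. Normalised reads are these recovered reads after scaling by size factor, and folds with 95% confidence intervals come from a limma-voom fit to those reads. A gene is called higher or lower where limma on the deposited log2 values gave an adjusted p under 0.05 over all 12618 tested genes. That rule called 30.7% of tested genes higher and 25.7% lower, 56.3% in all, so a call alone is common in these data. With upper-quartile centring the 3868 higher and 3240 lower genes became 2819 and 4814. Of 8 carcinoma markers 3 passed the filter, Vim (mean 2996 CPM in DMSO and 2598 CPM after STM2457), Hmga2 (406 and 458 CPM) and S100a4 (3.26 and 4.79 CPM). Epcam and Cdh1 were listed at 0, and Krt8, Krt18 and Krt19 were under the filter. The summed level of the list was 3359 to 3464 CPM in DMSO and 3035 to 3099 CPM after STM2457, lower in every STM2457 library. Of 5 lung epithelial and 4 endothelial markers 0 passed the filter, and Nkx2-1 was listed at 0. Of 6 leukocyte markers 1 passed it, Cd68, and the summed level of that list was 5.43 to 6.28 CPM in DMSO and 4.92 to 6.14 CPM after STM2457. All 6 fibroblast markers passed, with a summed level of 20.6 to 23.1 CPM in DMSO and 20.9 to 23.4 CPM after STM2457. Within that sum single markers differed in opposite directions, with mean levels of 3.68 and 9.35 CPM for Pdgfrb, 7.66 and 3.52 CPM for Col1a2 and 1.66 and 0.521 CPM for Lum. The part of such cells in the results was not tested.

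After STM2457, 3 of the 10 genes were higher, Amd1, Mettl16 and Mtap, and 2 were lower, Ahcyl1 and, by a small amount, Ahcy. Mat2a, Mat2b, Ahcyl2, Mtr and Mtrr did not pass the test. Of all tested genes, 30.7% were higher and 25.7% lower. The libraries of the groups did not overlap for 7 of the 10, with 3 higher and 4 lower after STM2457, beside 33.4% and 28.4% of tested genes. The median fold of the 10 was 1.01, the same as the median of 1.01 over all tested genes. In bulk RNA, fewer cells that express a gene and less of its RNA per cell cannot be told apart.

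**Figure D2:**
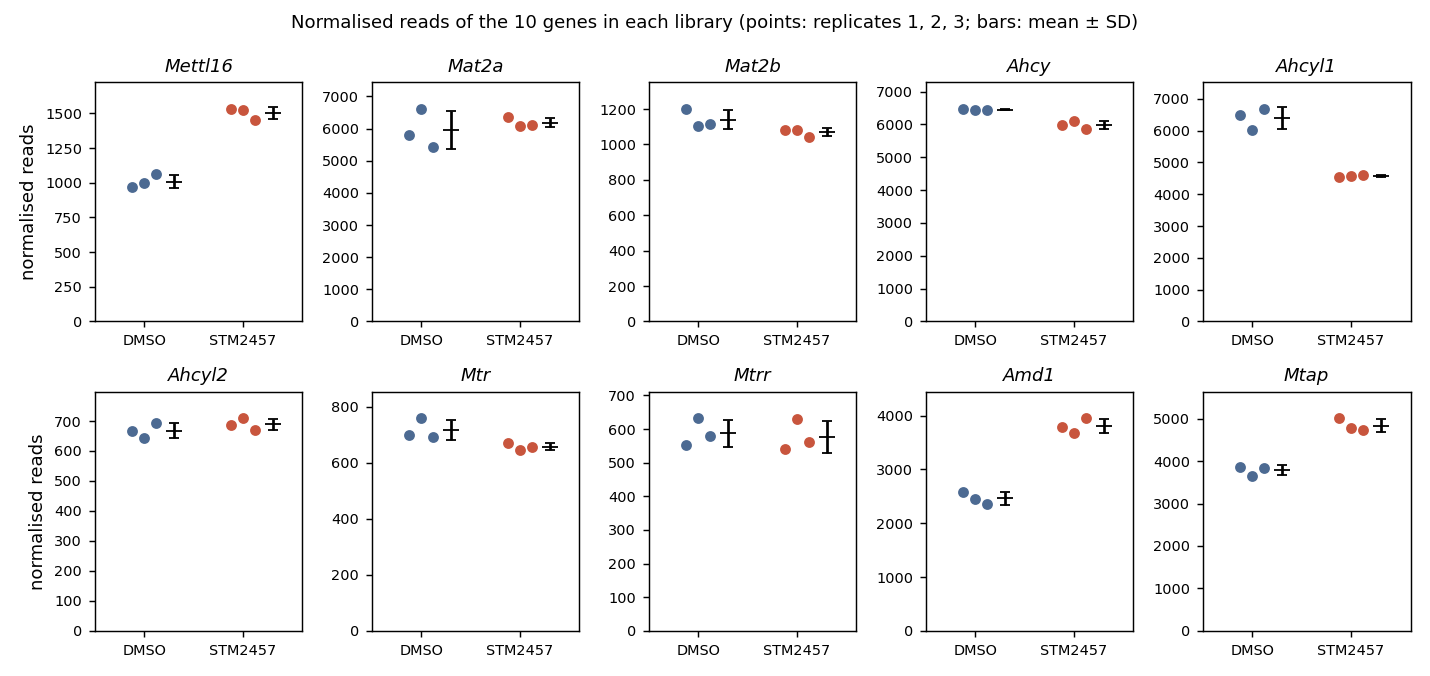
Normalised reads (vertical axes, each from 0) of the 10 genes in the 3 DMSO and 3 STM2457 libraries. Points are replicates 1 to 3 from left to right and bars the mean ± SD. The groups are clearly apart for Mettl16, Ahcyl1, Amd1 and Mtap, while for Mat2a the STM2457 points lie between DMSO replicates 1 and 2.

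Mettl16, the methyltransferase that marks U6 and Mat2a, measured 968, 1000 and 1060 normalised reads in the DMSO libraries, in order of replicate number, and 1533, 1525 and 1454 after STM2457. All 3 STM2457 libraries lay above all 3 DMSO libraries, as they did, in either direction, for 61.8% of tested genes. Mettl16 rose 1.49-fold (95% confidence interval 1.39 to 1.59). Its means were 1009 ± 46.4 and 1504 ± 43.5 normalised reads (SD, n = 3), with an adjusted p of 2.1e-10 in limma. Its fold was larger than that of 95.5% of tested genes, and it passed in all 14 alternative fits. Mettl3, the target of the compound, measured 537 ± 66.0 and 488 ± 32.4 normalised reads (SD, n = 3) with a fold of 0.912 (0.815 to 1.02, limma adjusted p = 0.15). Mettl3 passed as lower in 3 of 14 alternative fits. These were upper-quartile centring (limma adjusted p = 0.04), median centring (0.035) and leaving out DMSO replicate 1 (0.0089). Mettl3 exons overlap Tox4 on the other strand over 933 bases. The plus-strand gene Mettl16 spans chr11:74770830-74828525, and its exons overlap no other annotated gene.

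Mat2a, the catalytic subunit of SAM synthesis and the METTL16 target with the 6 sites above, measured 5810, 6612 and 5442 normalised reads in DMSO replicates 1 to 3. After STM2457 it measured 6353, 6087 and 6120. The groups overlapped, with DMSO replicate 2 above and DMSO replicates 1 and 3 below all STM2457 libraries. The means were 5955 ± 598 and 6187 ± 145 normalised reads (SD, n = 3), a fold of 1.04 (0.953 to 1.14) with an adjusted p of 0.40 in limma. The interval leaves room for a change of up to 1.14-fold but not for one the size of Mettl16's. The call depended on DMSO replicate 2: without it the DMSO mean was 5626, and Mat2a was higher (log2 difference 0.08 in the deposited values, adjusted p = 0.003). That was the 1 of 14 alternative fits in which it passed. With upper-quartile centring, with median centring and without DMSO replicate 3 the limma adjusted p was 0.96 each. Mat2a had the widest spread of the 10 genes in DMSO, with a coefficient of variation of 10.0%, against 2.34% after STM2457.

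The annotation gives Mat2a 10 transcripts, 3 of them with a retained intron and 1 marked for nonsense-mediated decay. The table has 1 value per gene, so the spliced and intron-holding forms cannot be told apart in it. The minus-strand gene Mat2a spans chr6:72432799-72439558, and 508 bases of its exons overlap Particl on the other strand. Particl had 30 to 89 reads per library. Whether reads were counted by strand is not stated, so reads of the shared bases cannot be told apart.

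Mat2b, the regulatory partner, measured 1201, 1105 and 1116 normalised reads in DMSO and 1083, 1080 and 1043 after STM2457. The STM2457 libraries lay below the DMSO libraries by a small margin. The fold was 0.938 (0.877 to 1.00, limma adjusted p = 0.097), and 4 of 14 alternative fits called it lower, among them upper-quartile centring (adjusted p = 0.0047). The ratio of Mat2a to Mat2b within a library was 4.84, 5.98 and 4.88 in DMSO and 5.87, 5.63 and 5.87 after STM2457. These overlapped, and the ratio's change of 1.11-fold did not pass an exact two-sided permutation test (p = 0.40, where 3 libraries against 3 cannot go below 0.10). Mat1a, the liver form of the catalytic subunit, was listed at 0 in all 6 libraries.

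**Figure D3:**
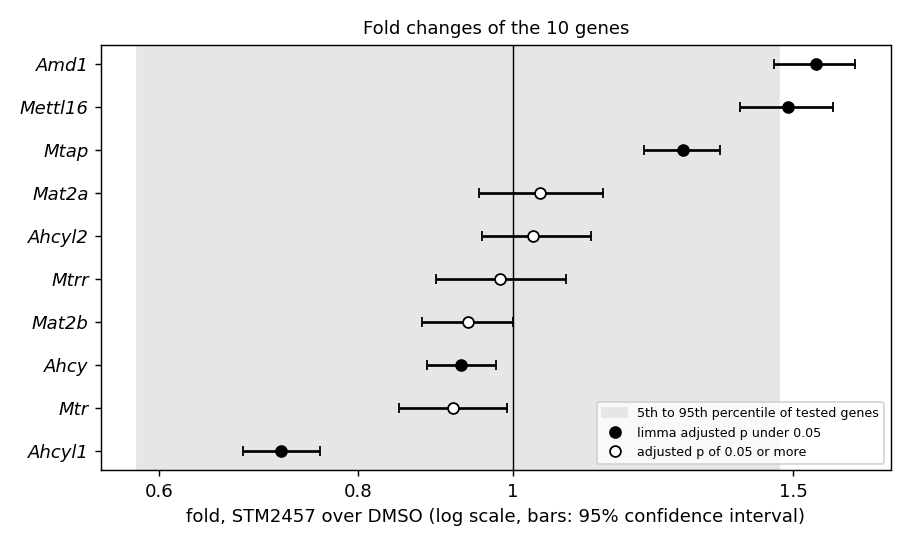
Fold of STM2457 over DMSO for the 10 genes on a log axis, with 95% confidence intervals from limma-voom on recovered reads. Filled points passed limma on the deposited values, and the grey band spans the 5th to the 95th percentile of all tested genes (0.581 to 1.47). Amd1 (1.55) and Mettl16 (1.49) lie past the band, and Ahcyl1 (0.715) lies inside it.

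Of Ahcy and the AHCY-like genes, Ahcy and Ahcyl1 were lower and Ahcyl2 did not pass. Ahcy, which removes S-adenosylhomocysteine, measured 6475, 6435 and 6445 normalised reads in DMSO and 5979, 6120 and 5873 after STM2457. The DMSO libraries agreed closely, with a coefficient of variation of 0.320%, and all 3 lay above the STM2457 libraries. Ahcy fell to 0.928 of its DMSO level (0.883 to 0.976, limma adjusted p = 0.013), a call that was lost without STM2457 replicate 3 (adjusted p = 0.064).

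Ahcyl1, also called IRBIT, is an AHCY-like protein that binds the inositol trisphosphate receptor and regulates calcium release and ion transporters. It measured 6506, 6010 and 6684 normalised reads in DMSO and 4546, 4578 and 4599 after STM2457. The STM2457 libraries lay close together and well below every DMSO library. Ahcyl1 fell to 0.715 of its DMSO level (0.677 to 0.757). Its means were 6400 ± 349 and 4574 ± 26.5 normalised reads (SD, n = 3), with an adjusted p of 3.1e-10 in limma. Its fold was smaller than that of all but 10.8% of tested genes, and it passed in all 14 alternative fits.

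Its paralog Ahcyl2 measured 666, 642 and 692 normalised reads in DMSO and 687, 709 and 670 after STM2457. The groups overlapped, and the fold was 1.03 (0.957 to 1.12, limma adjusted p = 0.48). The Ahcyl1 to Ahcyl2 ratio of normalised reads was 9.77, 9.36 and 9.66 in DMSO and 6.61, 6.46 and 6.87 after STM2457. The groups did not overlap, and the ratio changed to 0.693 of its DMSO value (exact two-sided permutation test p = 0.10, the smallest that 3 against 3 allows). Ahcyl2 exons overlap 4930528J11Rik on the other strand over 288 bases.

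Neither enzyme that returns homocysteine to methionine passed the test. Mtr, methionine synthase, measured 699, 759 and 693 normalised reads in DMSO and 671, 647 and 655 after STM2457. All STM2457 libraries lay below all DMSO libraries, but the fold of 0.918 (0.849 to 0.992) did not pass after adjustment (limma adjusted p = 0.057). Upper-quartile centring (adjusted p = 0.0047), median centring (0.0052), TMM scaling of the recovered reads (0.03) and leaving out DMSO replicate 1 (0.046) each made it lower.

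Mtrr, the reductase that reactivates methionine synthase, measured 552, 632 and 578 normalised reads in DMSO and 540, 631 and 561 after STM2457. The groups overlapped almost fully, with a fold of 0.982 (0.895 to 1.08, limma adjusted p = 0.76). The Mtr to Mtrr ratio was 1.27, 1.20 and 1.20 in DMSO and 1.24, 1.03 and 1.17 after STM2457, a change that did not pass (exact two-sided permutation test p = 0.40).

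The polyamine branch held the largest rise of the 10 genes. Amd1, which decarboxylates SAM into the aminopropyl donor for spermidine and spermine, measured 2587, 2451 and 2350 normalised reads in DMSO and 3796, 3675 and 3951 after STM2457. The lowest STM2457 library lay far above the highest DMSO library. Amd1 rose 1.55-fold (1.46 to 1.64). Its means were 2463 ± 119 and 3807 ± 138 normalised reads (SD, n = 3), with an adjusted p of 6.4e-12 in limma. Its fold was larger than that of 96.7% of tested genes, and it passed in all 14 alternative fits.

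Amd1 has 8 annotated copies with at least 90% identity over 200 bases, among them the intronless Amd2 (99.6% over 3202 bases). The reads of Amd1 are uncertain for that reason. The 3 copies with reads summed to 39 to 80 reads per library, 1.9% of those of Amd1. Amd2 measured 13.3 ± 1.23 and 24.5 ± 3.17 normalised reads (SD, n = 3) and rose 1.80-fold (1.25 to 2.60, limma adjusted p = 0.0068), a call lost with upper-quartile (adjusted p = 0.15) and median centring (0.097). Ahcy likewise has 3 such copies, of which 2 had reads, 1.1% of its own. How reads that match more than 1 place were counted is not given here. The shares of 1.9% and 1.1% therefore do not bound the uncertainty in the level of either gene. Mat2a matches the pseudogene Gm9523 (95.2% over 1065 bases, without recovered reads) and 6030443J06Rik (95.2% over 227 bases, 7 to 15 reads per library).

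Mtap, which recycles the methylthioadenosine left by spermidine and spermine synthesis and is often deleted in human tumours, measured 3862, 3657 and 3847 normalised reads in DMSO. After STM2457 it measured 5008, 4777 and 4726, above every DMSO library. Mtap rose 1.28-fold (1.21 to 1.35). Its means were 3789 ± 114 and 4837 ± 150 normalised reads (SD, n = 3), with an adjusted p of 3.0e-08 in limma. It passed in all 14 alternative fits.

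Levels were compared between genes per kilobase of annotated exon. In DMSO the order of normalised reads per kb was Ahcy (2300 ± 7.36), Mat2a (1327 ± 133), Mtap (1174 ± 35.4), Ahcyl1 (957 ± 52.2), Amd1 (695 ± 33.6), Mat2b (228 ± 10.5), Mtrr (113 ± 7.91), Mtr (84.1 ± 4.31), Mettl16 (73.0 ± 3.36) and Ahcyl2 (36.5 ± 1.36; SD, n = 3). The ranges of neighbouring genes in this order did not overlap, though Mat2a in its lowest library (1213) came close to Mtap in its highest (1197). After STM2457 Mtap (1499 ± 46.6) stood above Mat2a (1379 ± 32.3), Amd1 (1075 ± 39.0) above Ahcyl1 (684 ± 3.96), and Mettl16 (109 ± 3.14) above Mtr (77.2 ± 1.46). Mettl16 then overlapped Mtrr (111 ± 9.16; SD, n = 3). The order depends on the length used: per kb of the longest coding transcript, Ahcyl1 (1657) stood above Mtap (1355) in DMSO and Ahcyl2 (129) above Mtr (86.5). On that scale after STM2457, Mat2a (1827) stayed above Mtap (1729), and Amd1 (1188) and Ahcyl1 (1184) were nearly level. Mettl16 (119) stood above Mtr (79.3) there too.

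**Figure D4:**
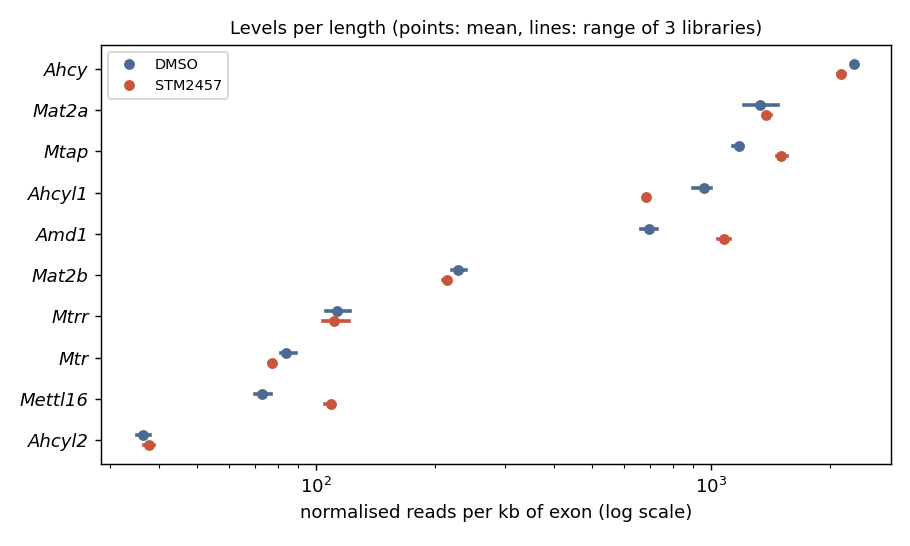
Normalised reads per kb of annotated exon (log axis) of the 10 genes. Points are means and lines the range of 3 libraries, blue for DMSO and red for STM2457. Levels run from 36.5 for Ahcyl2 to 2300 for Ahcy in DMSO. On this scale Mtap and Amd1 overtake Mat2a and Ahcyl1 after STM2457, which depends on the length used.

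Around these genes, 9 lists of pathway genes held 71 genes, of which 57 were tested. Of the 57, 13 were higher, 15 lower and 29 did not pass, beside 30.7% and 25.7% of all tested genes. Their median fold was 0.96.

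Among 14 tested genes that handle METTL16's RNA targets, 3 were higher and 2 lower, beside 30.7% and 25.7% of all tested genes. The median fold of the 14 was 1.01. Mepce, which caps small nuclear RNA, rose 1.44-fold (1.35 to 1.54, limma adjusted p = 1.2e-09). Sart3, which helps U6 rejoin its partner U4, rose 1.15-fold (1.08 to 1.22). Ythdc1, the nuclear m6A reader, rose 1.13-fold (1.06 to 1.20, adjusted p = 0.0014). Nudt21, the CFIm subunit needed for splicing of the detained Mat2a intron, fell to 0.86 of its DMSO level (0.811 to 0.912, adjusted p = 9.1e-05). Ythdc1 exons overlap Gm43055 on the same strand over 631 bases. Lsm8, the U6-specific ring subunit, was lower too, and the other 6 tested Lsm genes did not pass.

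Of the rest of the methionine cycle, 3 of 7 genes were tested and 2 were lower, beside 25.7% of all tested genes. Bmt2, the SAM sensor SAMTOR that restrains mTORC1, fell to 0.863 of its DMSO level (0.792 to 0.941, limma adjusted p = 0.0045). Slc25a26, the mitochondrial SAM carrier, had a fold of 0.855 (0.726 to 1.01, adjusted p = 0.076), and its exons overlap Lrig1 on the other strand over 144 bases. Bhmt and Bhmt2, which remethylate homocysteine with betaine in liver, were listed at 0.

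Of 5 tested genes for cobalamin, the cofactor of methionine synthase, 1 was higher and 1 lower, beside 30.7% and 25.7% of all tested genes. Cd320, the receptor for cobalamin uptake, rose 1.21-fold (1.11 to 1.32, limma adjusted p = 4.7e-04), and the lysosomal exporter gene Abcd4 fell to 0.845 (0.767 to 0.931). Mmadhc (1.06, 0.994 to 1.12) and Mmachc (0.937, 0.842 to 1.04) did not pass.

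Downstream of Mtap, 5 genes of methylthioadenosine salvage were tested, with 1 higher and 2 lower, beside 30.7% and 25.7% of all tested genes. Enoph1 rose 1.51-fold (1.39 to 1.63) with an adjusted p of 3.1e-09 in limma. Got1, an aminotransferase that can close the salvage, fell to 0.835 (0.785 to 0.887). Mri1, the isomerase after Mtap, fell to 0.912 (adjusted p = 0.022), but its groups overlapped and it did not pass when DMSO replicate 3 (0.12), STM2457 replicate 1 (0.12) or STM2457 replicate 2 (0.095) was left out. Adi1 did not pass (0.939, adjusted p = 0.087).

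Of 11 tested polyamine genes, 4 were higher and 1 lower, beside 30.7% and 25.7% of all tested genes. The median fold of the 11 was 0.998. Odc1, which makes putrescine, had the most normalised reads of the 11, at 11092 ± 411 and 11067 ± 385 (SD, n = 3). Per kb of annotated exon it stood below Srm in DMSO (3258 against 3635) and after STM2457 (3250 against 3999). Its fold was 0.998 (0.946 to 1.05, limma adjusted p = 0.95). Its inhibitor antizyme Oaz1 rose 1.21-fold (1.15 to 1.28) and the antizyme inhibitor Azin1 1.25-fold (1.18 to 1.31). Exons of Azin1 overlap Gm49077 on the other strand over 358 bases, and those of Oaz1 hold Mir1982 (74 bases). Spermidine synthase Srm rose 1.10-fold (1.04 to 1.16), a call lost with upper-quartile (adjusted p = 0.10) and median centring (0.077) and without STM2457 replicate 2 (0.066). Spermine synthase Sms fell to 0.842 (0.792 to 0.895, adjusted p = 2.9e-05).

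Of 5 tested genes that clear adenosine, the other product of AHCY, 3 were higher and 0 lower, beside 30.7% and 25.7% of tested genes. Ada, adenosine deaminase, rose 1.57-fold (1.37 to 1.80). Its means were 171 ± 15.6 and 269 ± 22.8 normalised reads (SD, n = 3), with an adjusted p of 1.5e-06 in limma. Pnp, which cleaves inosine, rose 1.51-fold (1.40 to 1.64), and the nucleoside transporter Slc29a1 1.16-fold (1.09 to 1.24). Exons of Pnp overlap Gm38316 on the other strand (356 bases) and Gm49342 on the same strand (718 bases), and those of Slc29a1 overlap Gm17080 on the other strand (275 bases). Adenosine kinase, Adk, which returns adenosine to AMP, did not pass (1.04, 0.971 to 1.12).

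Of 6 genes that bring methionine in, 4 were tested, and 3 of these were lower and 0 higher, beside 25.7% and 30.7% of all tested genes: Slc7a5 fell to 0.562 (0.462 to 0.684), its heavy chain Slc3a2 to 0.587 (0.507 to 0.680) and Slc38a2 to 0.833 (0.792 to 0.875). Slc43a2 did not pass (0.807, adjusted p = 0.14), and its exons overlap Gm45606 on the other strand over 922 bases. Slc7a5 had 10004, 13286 and 11687 reads in DMSO replicates 1 to 3, highest in replicate 2, and passed without it. Of 2 genes that turn homocysteine into cysteine 1 was tested. This was Cth, the second enzyme of that route, which fell to 0.453 (0.281 to 0.731, limma adjusted p = 0.015), with 608, 1008 and 749 reads in DMSO replicates 1 to 3. Cth did not pass with the replicate number as a block (adjusted p = 0.056), nor when DMSO replicate 3 (0.051), STM2457 replicate 2 (0.056) or STM2457 replicate 3 (0.051) was left out. Cbs, the enzyme that takes homocysteine, was under the filter at 5.00 ± 0.0306 and 4.30 ± 1.14 normalised reads (SD, n = 3).

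Of 9 tested enzymes in a list of SAM methyltransferases, most of them acting on small molecules, 1 was higher and 3 lower. The shares of all tested genes were 30.7% and 25.7%. Nnmt, which methylates nicotinamide, fell to 0.68 (0.604 to 0.765, limma adjusted p = 3.3e-06), the thiopurine methyltransferase gene Tpmt to 0.756 (0.647 to 0.883) and the arsenite methyltransferase gene As3mt to 0.665 (0.503 to 0.879). Exons of Tpmt overlap Gm18807 on the other strand over 641 bases.

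**Figure D5:**
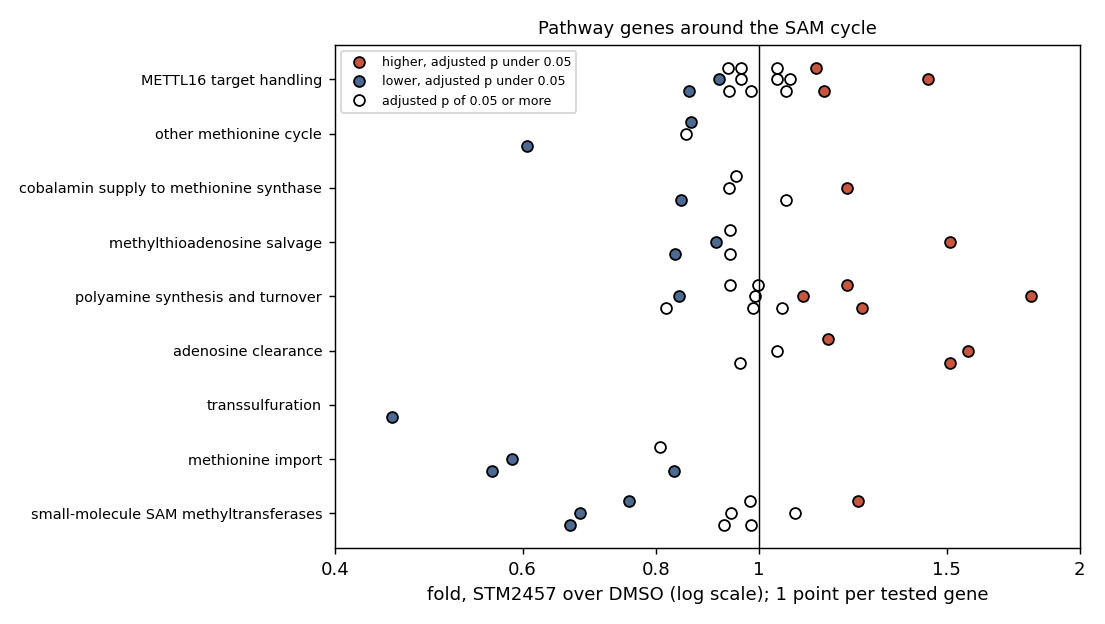
Fold of STM2457 over DMSO (log axis) for the 57 tested pathway genes, by list, with 1 point per gene and vertical offsets only for legibility. Red and blue points passed limma as higher and lower, and white points did not pass. Members of 6 lists lie on both sides of 1, while the 3 other genes of the methionine cycle, the 4 import genes and Cth lie below it.

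The genes whose deposited values followed Mettl16 most closely over the 6 libraries were Rwdd4a (Pearson r = 0.9989), Coro7 (0.9988) and Timm10 (0.9988). Such likeness was common, with 2581 genes, or 20.5% of those tested, at an r of at least 0.9. For Mat2a the closest were Poc5 (0.9875), Gm5931 (0.9860) and 1700092M07Rik (0.9850), and 43 genes, or 0.341%, reached an r of 0.9. These values describe 6 libraries that share 2 treatments.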

How the data were processed

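TRIzol served for extraction and a SMARTER mRNA method for library preparation, per the labels' protocols. The submitters' processing notes name HISAT2 2.2.1, featureCounts 2.0.1 (Subread), FastQC 0.11.9 and DESeq2, and build GRCm38. Annotation and strand settings are not stated in these sources. Values in log2 were deposited by the authors per gene symbol, 1 column per library, with no statement of the transform. Their form is that of a regularised log, which shrinks each gene's libraries towards their mean and keeps 59.9% of a log2 difference at high counts. Of 55367 rows, 31229 are 0 throughout.

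The transform's equations were inverted to give reads. The penalty (60.28), the dispersion trend and the size factors (0.9955 to 1.0092) were estimated from the values, and 95.9% of recovered values were whole to within 0.05 reads for genes with a mean under 2000 reads, against 64.0% above. The 5474 rows with the lowest nonzero values were left unrecovered. A count of 0 allows 3 reads, or 0.1674 to 0.1698 CPM, counting error only.

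As the values are log2, limma 3.58.1 in R 4.3.3 was fitted without a pseudocount (group as the only term, eBayes with trend and robust priors, statmod 1.5.0). It used genes with a mean of at least 3.32, the log2 of 10 reads, with Benjamini-Hochberg adjustment over all 12618 and a threshold of 0.05. Both steps were tested on simulated data. Ratios were tested by exact permutation over 20 assignments. Near-identical copies were sought with BLAST 2.17.0. Of 55367 symbols 53292 are in GENCODE M21, the source of coordinates and lengths. The alternatives were 2 filters, 2 centrings, 2 limma-voom fits, plain eBayes, the replicate block and leaving out each library. The text draws from the 10 genes, up to 4 tested genes of smallest adjusted p per list, and Mat1a, Amd2, Ythdc1, Nudt21, Odc1 and Mettl3, and others where single list members are counted. The members and lists were chosen with earlier results of these data known. Results of 2 list genes and 1 sequence are not reported here, though the genes stay in the counts of their lists.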

Additional observations from a re-analysis of the deposited data

How the results depend on the processing

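Mettl16, Amd1, Mtap and Ahcyl1 kept their direction and call in all 14 alternatives. Over the 10 genes and 14 alternatives, 130 of 140 values kept their call, 1 was lost (Ahcy), 9 were gained (Mat2a 1, Mat2b 4, Mtr 4) and 0 changed direction with a call. The number of the 10 genes called lower, 2, became 4 with upper-quartile centring, with median centring and with limma-voom under TMM scaling, as Mat2b and Mtr passed. Leaving out single libraries gave 1 to 3 lower and 3 to 4 higher. For all genes it gave 3402 to 3797 higher and 2704 to 3152 lower. It moved the log2 change of the Mat2a to Mat2b ratio between 0.10 and 0.25, of Ahcyl1 to Ahcyl2 between -0.55 and -0.51 and of Mtr to Mtrr between -0.16 and -0.02. Where 2 libraries remained in a group, the fit pooled the spread over both groups. Over all tested genes, same-numbered libraries did not deviate together (r = 0.05, 0.01 and 0.04 for numbers 1 to 3). A pairing in part of the genes was not tested. With the replicate block 3864 genes were higher and 3226 lower, with 3 and 2 of the 10. Folds under about 1.1 lie near the limit set by 3 libraries per group.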

Other observations

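Particl, a noncoding transcript antisense to the promoter end of Mat2a, was named after its values were seen. On the plus strand it spans chr6:72439051-72440610, across the start of Mat2a. It measured 63.1, 78.4 and 89.4 normalised reads in the DMSO libraries and 31.8, 29.8 and 29.7 after STM2457. The STM2457 libraries all lay below the DMSO libraries. Particl fell to 0.403 of its DMSO level (95% confidence interval 0.308 to 0.528, limma adjusted p = 5.3e-07), a fold smaller than that of all but 1.3% of tested genes, while its neighbour Mat2a did not pass. It passed in all 13 alternatives that held it. Its recovered reads lay up to 0.394 from whole numbers, and 508 bases of its exons overlap Mat2a, whose reads outnumber it.

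The Amd1 copy Amd-ps4 had 8, 18 and 14 reads in DMSO replicates 1 to 3 and 26, 24 and 36 after STM2457, and Amd-ps3 had 17, 14 and 24 and then 21, 28 and 17. These were also named after their values were seen. They share 99.5% and 99.9% of aligned bases with Amd1, and whether their reads come from Amd1 was not tested.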
